A study of Mus musculus with 13 samples.

Results

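The genes of 8 proteins that work with the nuclear RNA exosome were examined for R-loops, structures made of an RNA-DNA hybrid and the displaced DNA strand. The genes were Dis3, Skiv2l2, Zcchc8, Zcchc7, Rbm7, Papd5, Mphosph6 and C1d, out of 22367 protein-coding genes annotated on the mouse build mm9 (GENCODE vM1). They were chosen by name, and all peaks over a gene or within 1 kb of it were taken. That gave 155 of 298631 peaks in libraries not digested with RNase H before the hybrids were pulled down (called untreated below). The libraries digested at that step gave 3 of 15755. The material was N2a, a mouse neuroblastoma cell line of wild-type genotype, transfected with siRNA labelled siScramble, siDDX1 or siEXOSC3. For DRIP-seq, DNA was cut with 5 restriction enzymes before S9.6, an antibody that binds RNA-DNA hybrids, pulled fragments down. Each siRNA had 3 untreated libraries, from separate plates of this 1 line per the study's methods. Each also had 1 library whose DNA was digested before the pulldown with RNase H, which destroys the RNA of a hybrid. Per the same methods, RNase H was also applied to the pulled-down hybrids before sonication. The word untreated thus refers only to the step before the pulldown. The libraries were made from sonicated DNA, so the transcribed strand is not recorded, and R-loops from sense and antisense RNA cannot be told apart. A peak records DNA pulled down in a whole culture, so fewer cells with an R-loop and less signal per cell cannot be told apart either.

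The siRNA labels carry an unresolved conflict. In 12 of 12 peak lists the name inside the list gives another siRNA than the sample title. Lists titled siScramble hold peaks named siDDX1, those titled siDDX1 hold peaks named siEXOSC3, and those titled siEXOSC3 hold peaks named siScramble. Groups here are those of the titles, and the siRNA names below mean "labelled so by title". Peaks over Ddx1 and Exosc3 do not check the knockdown, since no RNA was measured in these libraries. Counts over all 9 untreated libraries and comparisons with RNase H do not depend on which naming is right.

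The RNA exosome is a barrel of noncatalytic subunits that threads RNA to a ribonuclease, and its nuclear form degrades or trims promoter upstream transcripts, enhancer RNAs and ribosomal and small nucleolar RNA precursors. DIS3 is the catalytic ribonuclease at the base of the barrel and therefore a subunit rather than a cofactor in the strict sense. MTR4, encoded by Skiv2l2, is the helicase that unwinds RNA for the nuclear exosome. MTR4 acts in the NEXT complex with the zinc knuckle protein ZCCHC8 and the RNA-binding protein RBM7, and in the TRAMP complex with the zinc knuckle protein ZCCHC7 and the poly(A) polymerase PAPD5. MPP6, encoded by Mphosph6, and C1D bind the nuclear exosome and help to attach MTR4 and the exonuclease EXOSC10. EXOSC3, the target of 1 of the siRNAs, is a cap subunit of the same barrel, and DDX1 is a putative RNA helicase.

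Peak edges at these genes followed the restriction map. DNA was cut before the pulldown, so the sequence at an edge tells whether the edge is that of a restriction fragment. At least 1 edge of 91 of the 155 untreated peaks (58.7%) lay exactly on a cut, against 56.5% of all 298631 untreated peaks. Edges moved by 300 bases lay on a cut for 0.112% of left edges of all peaks, against 31.8% in place. Each of the 15 edges that recurred at the same base in at least 3 untreated libraries at these genes was a cut, as were 26284 of 26590 such edges in all (98.8%). The sites searched were BsrGI (TGTACA), EcoRI (GAATTC), HindIII (AAGCTT), SspI (AATATT) and XbaI (TCTAGA), which read the same on both strands. The 30 bases (mm9, plus strand) around edges that bound the main signals are shown next, with the enzyme site in capitals.
Dis3, inner edge in 9 of 9 untreated libraries, BsrGI, chr14:99495475-99495504: actaaatatgtgTGTACAtacttagtacat
Dis3, outer edge upstream of the gene in 7 of 9, SspI, chr14:99499703-99499732: tgtgctattcagAATATTcgagtttgtacc
Skiv2l2, edge inside the gene in 8 of 9, BsrGI, chr13:113690143-113690172: acaataacaattTGTACAtggtctaggtca
Mphosph6, edge upstream of the gene in 3 of 9, XbaI, chr8:120325868-120325897: ataagacgacgcTCTAGAcccgcccgggcc
Papd5, left edge of the intron region in 7 of 9 untreated and 3 of 3 RNase H libraries, HindIII, chr8:90726102-90726131: gttcccacgcagAAGCTTcggatactgcct
Papd5, right edge of the same region in the same numbers, SspI, chr8:90727885-90727914: aggaaagaaacaAATATTtggatttcatcc
Rbm7, edge inside the gene in 4 of 9, XbaI, chr9:48298725-48298754: caaggaagttggTCTAGAagatgcatgtta
C1d, edge inside the gene in 4 of 9, BsrGI, chr11:17166701-17166730: ttttggttttgaTGTACAtgttttcaaaaa
The recurrent edges thus mark restriction fragments, within which the extent of the R-loop is not resolved.

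Only Dis3 and Papd5 had a peak within 1 kb of the gene start in 9 of 9 untreated libraries, a state held by 2489 of all protein-coding genes (11.1%). Mphosph6 had one in 6 libraries, Skiv2l2 and Rbm7 in 1 each, and Zcchc8, Zcchc7 and C1d in none. Of all genes, 65.9% had a start peak in no untreated library. With any peak over the gene or its 1 kb flanks counted, Dis3, Skiv2l2, Papd5 and Mphosph6 were marked in 9 of 9 libraries (26.2% of all genes), C1d in 6, and Zcchc8, Zcchc7 and Rbm7 in 5. The start counts rest in part on weak peaks: with peaks of −log10 q of at least 5, Dis3 kept its start peak in 8 libraries, Papd5 in 5 and Mphosph6 in 5. Counts over the gene or its flanks were then 9 for Dis3 and Papd5, 7 for Skiv2l2 and 6 for Mphosph6. They were 5 for Rbm7 and C1d, 4 for Zcchc8 and 3 for Zcchc7.

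**Figure D1:**
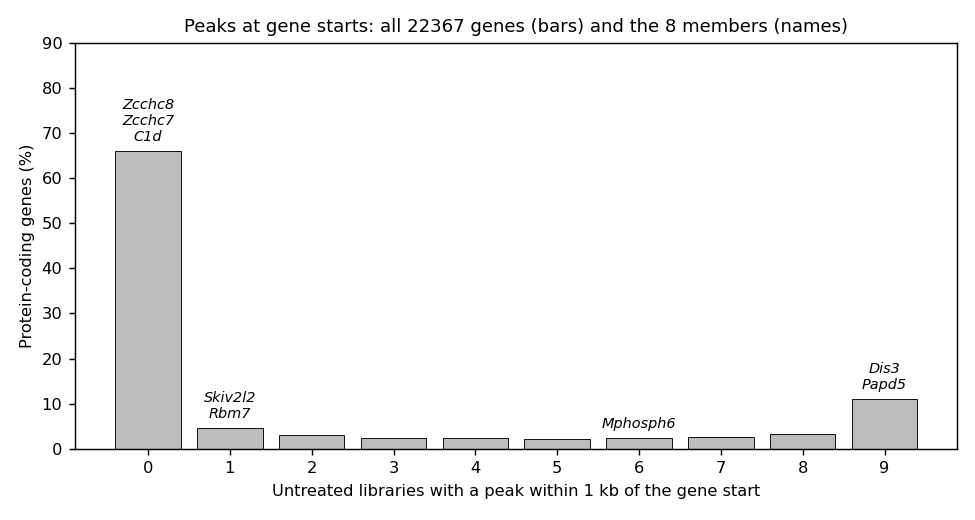
Share of all protein-coding genes (vertical axis, percent, bars) by the number of untreated libraries, 0 to 9, with a peak within 1 kb of the gene start (horizontal axis). The 8 genes are written above their bar: Dis3 and Papd5 stand at 9, Mphosph6 at 6, Skiv2l2 and Rbm7 at 1, and Zcchc8, Zcchc7 and C1d at 0.

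Base composition and start peaks were set side by side. The GC content from 500 bases before to 500 bases after the start was 69.5% at Papd5 and 61.7% at Dis3, but also 61.7% at Rbm7, and 54.6% at Zcchc8. The median was 54.7% over all protein-coding genes, 61.7% over genes with a start peak in 9 of 9 libraries and 50.9% over genes with one in none. The ratio of observed to expected CpG dinucleotides was 1.06 at Papd5, 1.02 at Rbm7, 0.979 at Zcchc8 and 0.923 at Dis3, against a median of 0.549 over all genes, 0.812 over those with a start peak in 9 of 9 libraries and 0.342 over those with none. Zcchc8 and Rbm7 thus had a high CpG ratio at their starts, above 97.2% and 98.7% of all genes, with start peaks in 0 and 1 libraries. Zcchc7 had the lowest GC content of the 8, 43.3%. GC skew, the excess of G over C in the transcribed sense within the first 500 bases, was highest at Mphosph6 (0.243) and Skiv2l2 (0.203) and was −0.155 at Zcchc7, against a median of 0.0435. The restriction fragment that holds the start measured 2615 bases at Zcchc7, 2160 at Papd5, 2127 at Skiv2l2, 1939 at C1d, 1589 at Dis3, 1463 at Mphosph6, 1367 at Rbm7 and 1187 at Zcchc8. The median was 1530 over all genes, 2385 over those with a start peak in 9 of 9 libraries and 1315 over those with none. The 100 bases before the start of Papd5 and of Zcchc8 are shown (mm9, 5′ to 3′ in the direction of transcription, CpG in capitals). Both starts had a high ratio by the measure above, with opposite calls, but these stretches hold 19 and 5 CpG dinucleotides.
Papd5, start peak in 9 of 9 libraries, plus strand, chr8:90723012-90723111: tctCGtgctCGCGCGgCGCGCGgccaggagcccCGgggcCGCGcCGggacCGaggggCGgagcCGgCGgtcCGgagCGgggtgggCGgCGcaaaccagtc
Zcchc8, start peak in 0 of 9 libraries, minus strand, chr5:124171054-124171153: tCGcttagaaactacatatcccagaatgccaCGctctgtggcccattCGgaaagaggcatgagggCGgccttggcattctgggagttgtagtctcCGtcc

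Dis3, the gene of the exosome ribonuclease (chr14:99475853-99498989, minus strand), carried 1 block of signal at its start and little elsewhere. The block ran from 728 bases upstream to 3501 bases downstream of the start (chr14:99495488-99499717) and was called in 9 of 9 untreated libraries. It was split into 2 to 4 peaks per library, and the highest of them lay downstream, with an edge on the BsrGI site shown above. The fold enrichment is the authors' peak caller's ratio of fragments at the peak's summit to the local background, each with 1 fragment added. Near the start the highest fold was 5.34, 9.91 and 10.2 in siScramble, 8.92, 7.38 and 7.77 in siDDX1 and 5.59, 3.59 and 7.59 in siEXOSC3. The siEXOSC3 values reached the lowest level, and each pair of groups overlapped. Over the whole block the highest fold was 8.79 to 12.7 in siScramble, 9.84 to 13.1 in siDDX1 and 7.34 to 12.2 in siEXOSC3. The strongest summit, in siDDX1 replicate 1, held 29 fragments (exact 95% Poisson interval 19.4 to 41.6), and the weakest start peak, in siEXOSC3 replicate 2, held 6 (2.2 to 13.1). Pibf1, on the plus strand, starts 337 bases inside Dis3, so this block spans overlapping starts on opposite strands. Signal over these starts cannot be assigned to either gene. The highest peak of each library lay inside Dis3 and outside the annotated Pibf1, with the transcribed strand not recorded. Outside the block, Dis3 had 3 regions called in 1 to 3 libraries each, 1 of them over the gene end.

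Papd5, the gene of the TRAMP poly(A) polymerase (chr8:90723112-90783621, plus strand), had a weak signal at its start and a stronger one in the intron after the second exon. At the start the highest fold was 5.86, 5.57 and 7.84 in siScramble, 5.67, 4.92 and 4.53 in siDDX1 and 4.97, 3.67 and 6.43 in siEXOSC3. The values of the 3 groups overlapped. These start peaks fell into a region over the start (386 bases upstream to 345 downstream) and another from 414 to 1242 downstream, each called in 5 of 9 libraries. In the intron, a region from 3003 to 5113 bases downstream (chr8:90726115-90728225) was called in 9 of 9, with a fold of 9.37, 7.43 and 9.04 in siScramble, 9.16, 7.38 and 9.07 in siDDX1 and 11.2, 10.4 and 18.7 in siEXOSC3. Each siEXOSC3 library lay above each library of the other groups there, as it did in 4.09% of the 7458 regions called in 9 of 9 untreated libraries. A limma fit over all such regions, given below, called 0.134% of them against siScramble and 0.402% against siDDX1, and this region was not among them. The other 9 regions of Papd5 were called in 1 to 3 libraries each.

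Skiv2l2, the gene of the MTR4 helicase (chr13:113657988-113717588, minus strand), was marked far inside the gene rather than at its start. The region called in 9 of 9 libraries lay 27429 to 30847 bases downstream of the start (chr13:113686741-113690159) and overlapped coding exons. Its highest fold was 3.73, 7.41 and 4.87 in siScramble, 8.41, 6.45 and 6.59 in siDDX1 and 5.49, 4.54 and 7.40 in siEXOSC3, and the groups overlapped. A second region, 33155 to 34443 bases downstream, was called in 3 of 3 siScramble libraries and in none of the other 6, a pattern held by 0.109% (76) of the 69495 regions of the untreated libraries. Its fold lay between 3.85 and 4.92. The highest −log10 q of its peaks was 4.25, so none was left at a −log10 q of at least 5. The total of 69495 also counts regions called in fewer than 3 libraries, which cannot show this pattern. At 4212 to 5034 bases a further region was called in 5 libraries. The start, 350 bases from that of the divergent gene Dhx29, had a peak within 1 kb in 1 library only.

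Mphosph6, the gene of MPP6 (chr8:120315545-120325829, minus strand), was marked at both ends of a short gene. The pseudogene Gm10617, on the plus strand, starts 133 bases upstream of Mphosph6. The Mphosph6 start region, from 55 bases upstream to 2957 downstream (chr8:120322872-120325884), ended short of Gm10617 and was called in 9 of 9 libraries. Its highest fold was 4.60, 4.52 and 5.81 in siScramble, 8.16, 4.38 and 9.31 in siDDX1 and 5.56, 4.85 and 5.87 in siEXOSC3. Only 2 siDDX1 libraries stood above the rest. In 3 libraries the peak lay beyond 1 kb from the start, which is why the count at the start is 6 and not 9; within 2 kb it was 9. A region over the gene end was called in 8 of 9 libraries, with a fold of 3.87 to 6.88. Mphosph6 had the largest covered share of the 8 genes, 20.1% of the gene and its flanks on average, against 13.8% for Dis3 and 0.308% for Zcchc7.

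The genes of the remaining partners carried scattered, weak peaks. Zcchc8 (chr5:124148311-124171053, minus strand) was marked only in its 3′ part, 16918 to 20659 bases from the start, in 5 libraries, at least 1 of each group. Rbm7 (chr9:48296814-48303413, minus strand) had its main region 3444 to 4675 bases from the start in 5 libraries, at least 1 of each group, with a fold of 5.24 to 8.67. Its 1 peak near the start, in siDDX1 replicate 1, lay 878 to 1138 bases upstream, beyond the neighbouring gene Gm5617. Zcchc7 (chr4:44768749-44945087, plus strand), the longest of the genes, had its recurrent region over the gene end, with peaks within 1 kb of the end in 5 libraries and a fold of up to 11.5 in siScramble replicate 3. C1d (chr11:17157582-17169179, plus strand) was marked 7509 to 9135 bases downstream, apart from 1 peak 1606 to 1950 bases downstream in siScramble replicate 3, with its most frequent region in 4 libraries at a fold of 4.32 to 5.84. In all, the peaks of the 8 genes formed 45 regions, of which 4 were called in 9 of 9 libraries and 19 in 1 library only. By the annotation 19 of them overlapped coding exons, 19 lay in introns, 5 overlapped noncoding exon sequence and 2 lay outside the genes.

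**Figure D2:**
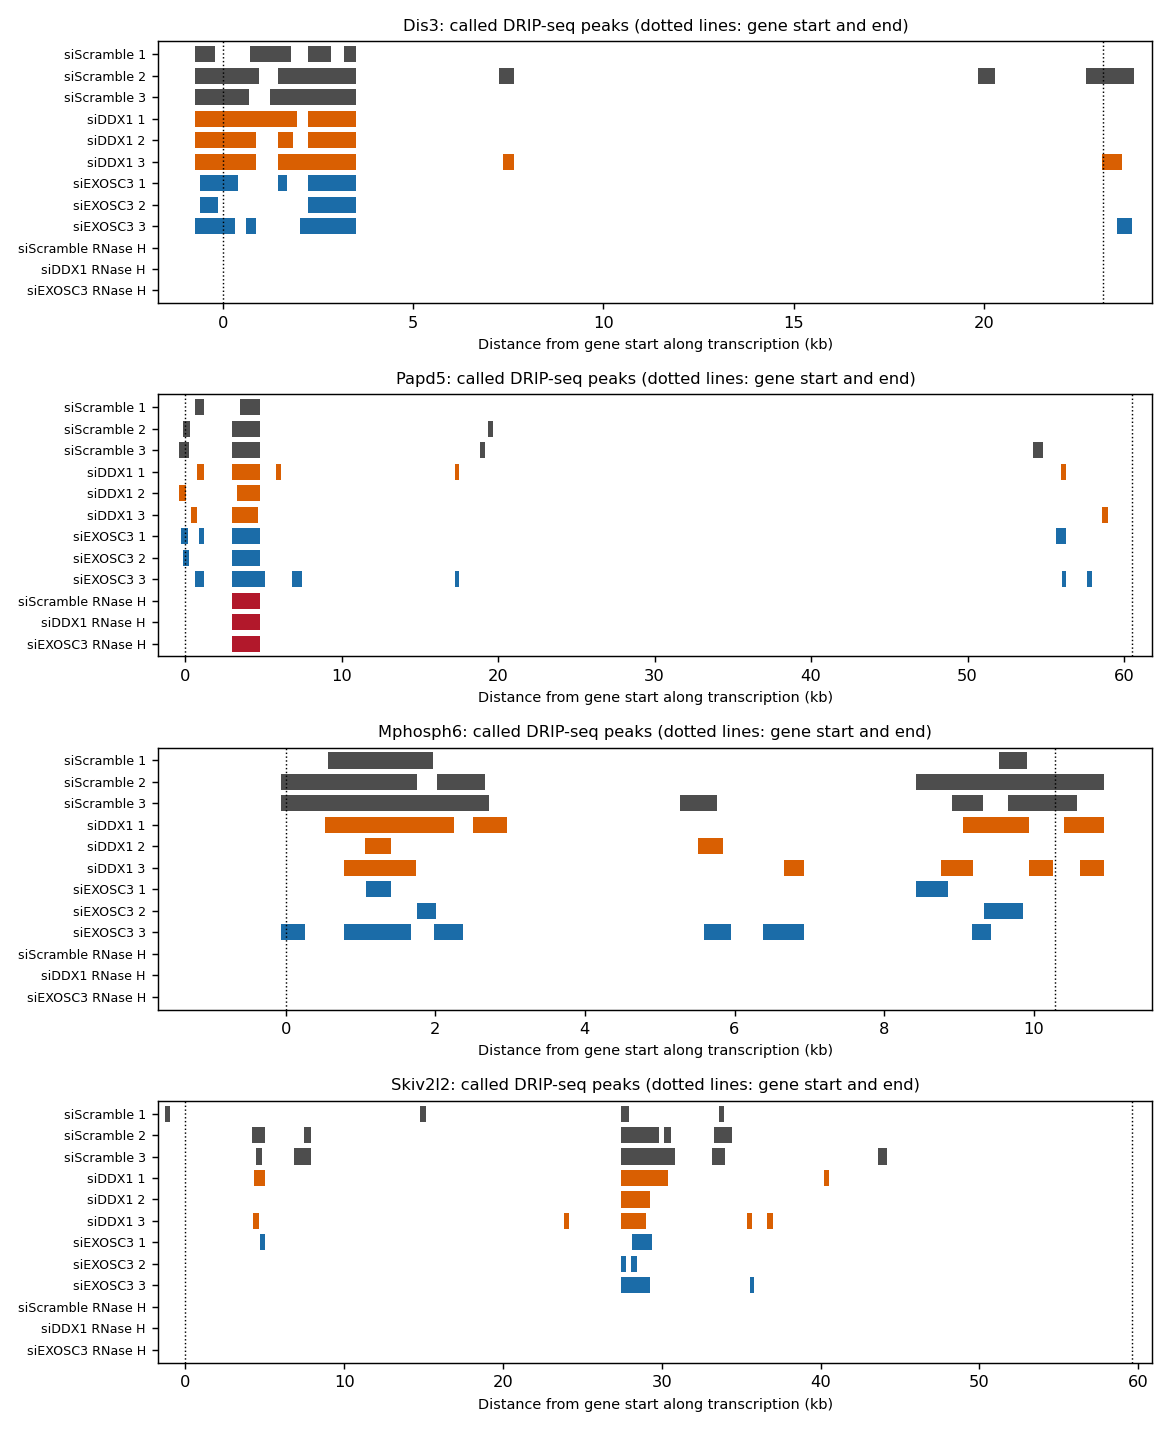
Called peaks (bars) in the 12 libraries (rows) along Dis3, Papd5, Mphosph6 and Skiv2l2, by distance from the gene start in kb in the direction of transcription, with dotted lines at the gene start and end. Dis3 shows 1 block at its start, Papd5 a block in the intron that is the only signal in the 3 RNase H libraries, Mphosph6 signals at both ends, and Skiv2l2 a block 27.4 to 30.8 kb inside the gene.

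After RNase H no peak was called at 7 of the 8 genes. Dis3, Skiv2l2, Zcchc8, Zcchc7, Rbm7, Mphosph6 and C1d had 0 covered bases in 3 of 3 RNase H libraries, a state shared by 86.5% of all protein-coding genes. That share also counts genes without any untreated peak, which made up 50.1% of all genes. The mean untreated length of 3471 bases at Dis3 and 2882 at Skiv2l2 fell to 0, and both passed the exact permutation test of covered bases within groups (64 arrangements, two-sided, p = 0.0156, the smallest possible, Benjamini-Hochberg adjusted p = 0.0368 over 11156 genes). The test called 42.4% of all genes tested, 4733, of which 4626 were lower after RNase H. Mphosph6, at 2469 and 0 bases, did not pass (exact permutation adjusted p = 0.0641). Under the alternative settings Mphosph6 passed in 5 and did not in 9, while Skiv2l2 passed in 9 and did not in 5. Zcchc8, Zcchc7, Rbm7 and C1d, which also had untreated libraries at 0, had adjusted p of 0.261, 0.402, 0.299 and 0.187 by the same exact test. The calls at Dis3 and Skiv2l2 do not survive the loss of siScramble replicate 2, siScramble replicate 3 or siDDX1 replicate 3, when no gene of the table passes.

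Papd5 was the exception. Its intron region kept a peak in 3 of 3 RNase H libraries, always of 1785 bases and with both edges on the HindIII and SspI sites shown above. A peak over the gene or its flanks in 3 of 3 RNase H libraries occurred at 3.03% of all genes, and 112 of the 7458 regions called in 9 of 9 untreated libraries (1.5%) were also called in 3 of 3 RNase H libraries. The fold was 19.7, 14.8 and 22.1 in the RNase H libraries of siScramble, siDDX1 and siEXOSC3, each above the untreated libraries of its own group, of which the highest were 9.37, 9.16 and 18.7. The summits held 50, 31 and 46 fragments after RNase H (exact 95% Poisson intervals 37.1 to 65.9, 21.1 to 44 and 33.7 to 61.4) against 11 to 28 without. The RNase H libraries had a local background of 1.13 to 1.59 fragments there, against 0.544 to 1.29 in the untreated ones. On the log2 scale the fold was 0.92 higher after RNase H, a factor of 1.9 (exact permutation test, two-sided, p = 0.0156, adjusted p = 0.0318 over the 112 regions, of which 49.1% passed, 26 higher and 29 lower), in a test chosen after the data were seen. This call rests on the added fragment. As the plain ratio of summit fragments to background, siEXOSC3 replicate 3 stood at 50.5 untreated, above the 40.9 of the siEXOSC3 RNase H library. The difference then fell to 0.49 on the log2 scale and did not pass (exact permutation test, p = 0.0625, adjusted p = 0.0942 over the 95 regions with this ratio in all 12 libraries, of which 44 passed). All other Papd5 peaks, 387 to 2005 bases per untreated library, were not called in the RNase H libraries. The intron region had a GC content of 43.2%, against a median of 49.1% over those 112 regions.

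**Figure D3:**
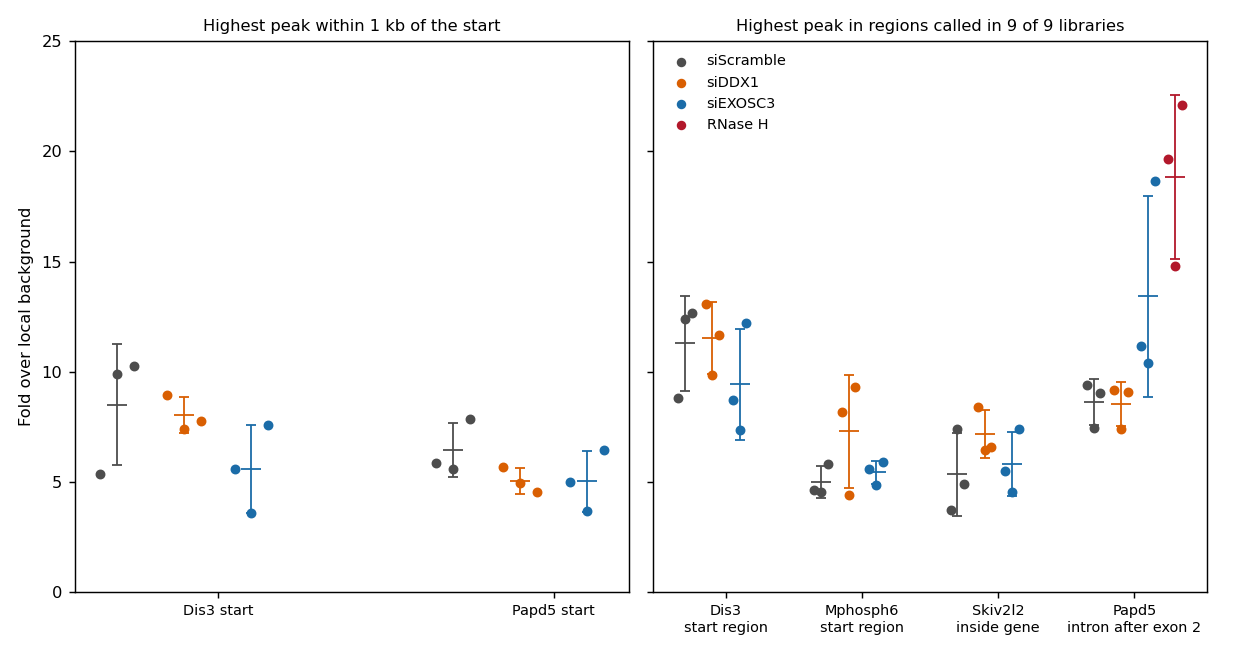
Fold enrichment over the local background (vertical axis, linear) in each library (points), with the group mean and SD (n = 3). The left panel shows the highest peak within 1 kb of the Dis3 and Papd5 starts, and the right panel the highest peak in the 4 regions called in 9 of 9 untreated libraries, where only the Papd5 intron region also has RNase H values, 14.8 to 22.1.

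The design asks whether R-loops at these genes differ between the siRNAs, and no member passed a test between groups. Covered bases give a value in every library, also where no peak was called. For Dis3 they were 2545, 5862 and 3672 in siScramble, 3940, 3277 and 4485 in siDDX1 and 2529, 1740 and 3190 in siEXOSC3. Each siDDX1 library exceeded each siEXOSC3 library, as happened in 1 direction or the other at 7.42% of the 11156 genes tested. For Rbm7 they were 761, 1447 and 1838 in siScramble, 1501, 0 and 0 in siDDX1 and 0, 710 and 0 in siEXOSC3. Each siScramble library exceeded each siEXOSC3 library, as happened in 1 direction or the other at 9.96% of genes. Rbm7 and Dis3 were the only members without overlap between a pair of groups, and no member lacked overlap between siScramble and siDDX1, where 2.68% of genes did.

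The group means of covered bases ordered siScramble, siDDX1, siEXOSC3 from high to low at 5 of the 8 genes, against 19.3% of the 11156 genes tested, and the spread was wide. By the names inside the lists this order reads siDDX1, siEXOSC3, siScramble. Dis3, 1 of the 5, had means of 4026 bases in siScramble and 3901 in siDDX1. These means swapped order with an equal number of peaks taken from each library (3895 and 3901) and on the log2 scale (11.93 and 11.95). All 8 genes were read from the same libraries. Skiv2l2 had 4241 ± 2653 bases (SD, n = 3) in siScramble, 2941 ± 1087 in siDDX1 and 1464 ± 674 in siEXOSC3. Mphosph6 had 3780 ± 1749, 2197 ± 1451 and 1429 ± 1139 bases. Zcchc8 had its highest mean in siEXOSC3, 1077 ± 318 bases, against 439 ± 761 in siScramble and 301 ± 522 in siDDX1. Papd5 also had its highest mean in siEXOSC3, 3189 ± 975 bases, and C1d its lowest in siDDX1, 141 ± 244. The Papd5 length includes 1281 to 2111 bases per untreated library in the intron region that was also called in 3 of 3 RNase H libraries. In the exact permutation test of the 3 groups (280 splits) the lowest unadjusted p was 0.118, at C1d, and the highest 0.521, at Papd5. Without siScramble replicate 1 the exact p was 0.0143 at Skiv2l2, 0.025 at Zcchc7 and 0.0393 at C1d, with an adjusted p of 0.701 for each. It was also 0.0429 at C1d with peaks of −log10 q of at least 5, and 0.0357 at Dis3 with neighbouring peaks joined (exact permutation tests, adjusted p of 1). The adjusted p was 1 for all 8, and 0% of 11156 genes passed (311 at an unadjusted p under 0.05), because the smallest p of this design, 0.00357, cannot pass the adjustment unless very many genes reach it.

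The number of peaks called in a library moved with these lengths. All 8 genes had a peak in siScramble replicate 3, siDDX1 replicate 1 and siEXOSC3 replicate 2, and only 4 had one in siDDX1 replicate 2. The lists of siScramble replicate 1 and siDDX1 replicate 2, with 23880 and 24165 peaks, were the shortest, and these libraries had 8485 and 7756 covered bases over the 8 genes together. In siScramble replicate 2 and replicate 3, with 37510 and 42168 peaks, the sum was 22569 and 23878. siEXOSC3 replicate 3, with 42569 peaks, had 13549. With an equal number of peaks taken from each untreated library, the lowest p among the 8 genes was 0.107 by the same exact test, at Mphosph6 and C1d. In that setting the highest Zcchc8 mean was in siScramble, 439 bases, against 111 in siDDX1 and 349 in siEXOSC3. Papd5 kept its highest mean in siEXOSC3, 2402 bases, against 2167 in siScramble and 2055 in siDDX1. The part of the peak number in the group means was not tested.

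**Figure D4:**
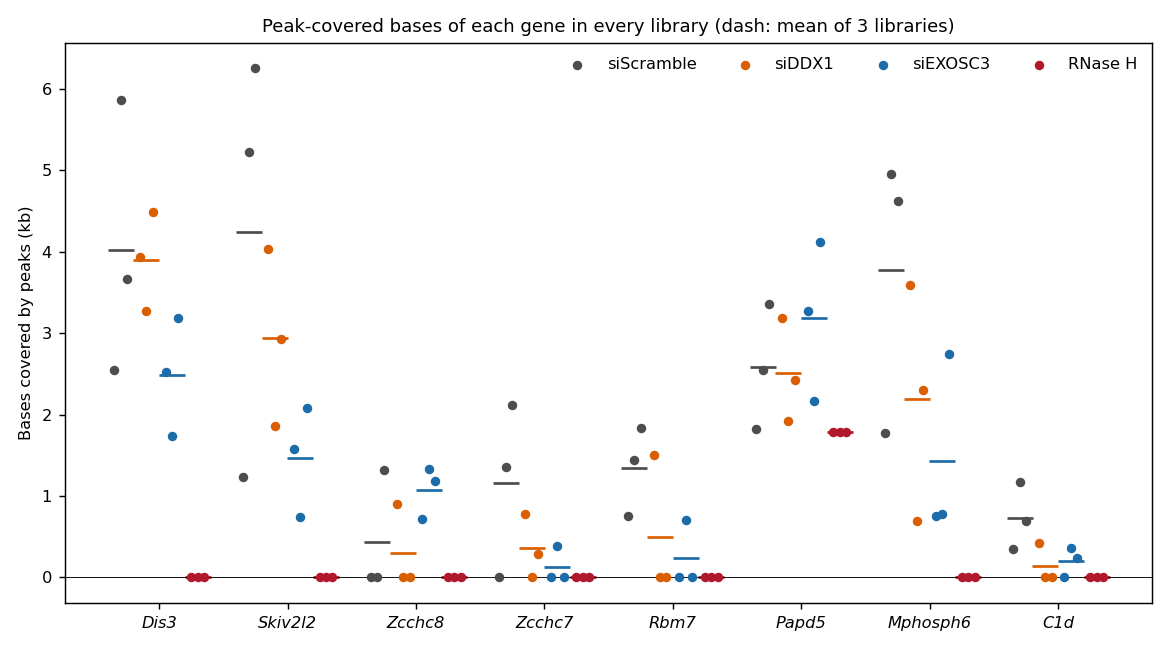
Bases covered by peaks (vertical axis, kb) in each gene and its 1 kb flanks, for the 3 untreated libraries of each siRNA and the 3 RNase H libraries (points) with the mean of each set (dash). The values of the siRNA groups overlap except for siDDX1 and siEXOSC3 at Dis3 and siScramble and siEXOSC3 at Rbm7, and RNase H libraries lie at 0 except at Papd5, where all 3 lie at 1785 bases.

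The height of the start peak could be compared for Dis3 and Papd5, with limma on the log2 fold of the 2489 starts called in 9 of 9 libraries, each library centred on its median. At Dis3 the log2 fold in siEXOSC3 differed by −0.91 from siDDX1 (SE 0.22, limma adjusted p = 0.0679) and by −0.80 from siScramble (SE 0.22, limma adjusted p = 0.118), and neither passed. These comparisons called 0.723% of starts each. Without siDDX1 replicate 1, whose background was 1.86 times the untreated mean, the first difference was −0.99 with a limma adjusted p of 0.0461. Under the other alternatives the limma adjusted p ran from 0.0553 (starts within 2 kb) to 0.36 (no centring, difference −0.58). Between siDDX1 and siScramble Dis3 differed by 0.12 (SE 0.22, limma adjusted p = 0.898), and 0% of starts were called (228 at an unadjusted p under 0.05). By the names inside the peak lists, the same differences would read as lower in siScramble than in siEXOSC3, lower in siScramble than in siDDX1, and siEXOSC3 against siDDX1. Papd5 differed by −0.56 (SE 0.21) between siEXOSC3 and siScramble, −0.37 between siEXOSC3 and siDDX1 and −0.19 between siDDX1 and siScramble, with limma adjusted p of 0.229, 0.392 and 0.808. Of the other 2488 starts, the pattern over the 9 libraries most like that of Dis3 was that of Pibf1 (Pearson r = 0.985), which reads the same peaks, and the one most like Papd5 was that of Wee1 (r = 0.848). Both are descriptions over 9 libraries.

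A fit over the 7458 regions called in 9 of 9 libraries, chosen after the data were seen, gave no call for the 4 regions of these genes. The Papd5 intron region was also called in 3 of 3 RNase H libraries. There the log2 fold in siEXOSC3 was 0.50 above siScramble (SE 0.22, limma adjusted p = 0.268) and 0.40 above siDDX1 (limma adjusted p = 0.378). At the Dis3 block it was −0.36 and −0.52 against the same groups (limma adjusted p = 0.418 and 0.204). The regions of Skiv2l2 and Mphosph6 stood 0.59 and 0.60 higher in siDDX1 than in siScramble (limma adjusted p = 0.478 and 0.496). The fit called 0.134% of regions between siEXOSC3 and siScramble, 0.402% between siEXOSC3 and siDDX1, and 0% between siDDX1 and siScramble (596 at an unadjusted p under 0.05).

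Other related genes are read against all protein-coding genes, of which 11.1% had a start peak in 9 of 9 untreated libraries and 65.9% in none. Of 10 annotated genes of the exosome ring, cap and exonucleases, 2 had a start peak in 9 of 9 untreated libraries and 4 in none. Of 13 genes of other nuclear partners, among them components of the cap-binding and PAXT complexes, 5 had one throughout and 4 in none. Of 5 genes of cytoplasmic RNA decay, 2 had one throughout and 3 in none. Mean covered length had a median of 1582 bases over the 8 genes and 1721 over the ring, cap and exonucleases. It was 4459 over the other nuclear partners and 1149 over the genes of cytoplasmic RNA decay. Over all protein-coding genes, of which 50.1% had no untreated peak, it was 0. The one gene of these lists with a call between siRNAs was Hbs1l, which encodes a ribosome rescue factor of the cytoplasmic exosome pathway, with a log2 fold difference of −1.60 in siEXOSC3 against siDDX1 (SE 0.20, limma adjusted p = 0.0014), in a comparison that called 0.723% of starts. Without centring it was −1.27 and did not pass (limma adjusted p = 0.0647), and by the names inside the lists it reads siScramble against siEXOSC3.

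Over the whole series, untreated lists held 23880 to 42569 peaks and RNase H lists 3809 to 8031. Median summits held 9 to 12 fragments in untreated and 12 to 14 in RNase H libraries, which limits how finely a fold can be read. Among markers of the sympathoadrenal lineage, from which neuroblastoma arises, 2 of 9 had a start peak in 9 of 9 untreated libraries and 6 in none, against 11.1% and 65.9% of all genes, and of 10 fibroblast, hepatocyte and leukocyte markers 10 had none. Peaks are no measure of expression, and the labelled cell type was not checked by these counts.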

How the data were processed

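DRIP-seq peak lists of 12 libraries (3 untreated and 1 RNase H-digested for each of 3 siRNA labels) were analysed, and the input library was not analysed here. Per the submitters' processing notes and the study's methods, the authors aligned reads to mm9 with Bowtie2 2.4.4, called peaks per library against input with MACS2 2.2.6, and tested recounted reads with DESeq2, which needs read counts not used here. The deposited values are the fold enrichment, a linear ratio, and the −log10 p-value and q-value of each peak. The lists hold no read counts. The summit's fragment number was taken as the whole number whose Poisson −log10 p, given the fold, lay nearest the deposited −log10 p. These −log10 p lay within 0.01 of each other for 99.55% to 99.97% of peaks per library. Background was 0.544 to 1.29 fragments in untreated libraries, highest in siDDX1 replicate 1, and 1.13 to 1.59 in RNase H libraries.

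Genes were extended by 1 kb (GENCODE vM1, protein-coding). All 8 members were named. Besides them, neighbouring genes, the start most alike over libraries, and related genes that passed a test were named. The members and lists were chosen with earlier results of these data known. Covered bases were compared with exact permutation tests, and log2 fold with limma 3.58.1 in R 4.3.3. p-values were adjusted by Benjamini-Hochberg over all features tested. Python 3.11.15, numpy 2.4.6, scipy 1.17.1 and pandas 2.3.3 were used. Code was tested on simulated data. Plates are separate cultures of 1 line, so p-values measure spread between plates. Poisson intervals cover counting error only. Alternatives were stricter, equal or joined peaks, other gene bounds and start windows, log scale, centring, a replicate block and leaving out each library.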

Additional observations from a re-analysis of the deposited data

How the results depend on the processing

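No group difference of covered bases passed in any alternative. The count of members with a start peak in 9 of 9 libraries, 2, was 0 with −log10 q of at least 5 or with equal peak numbers, 1 within 500 bases, and 2 without any 1 library. Covered bases after RNase H passed at 4733 genes and, without single libraries, at 0 to 5354: 0 without siScramble replicate 2, siScramble replicate 3 or siDDX1 replicate 3, and at least 4682 without any of the others. The number of starts called between siEXOSC3 and siScramble, 18, became 4 without centring, 10 within 2 kb, 11 with the mean fold and 0 to 18 without single libraries. Between siEXOSC3 and siDDX1, 18 became 0 without centring, 6 with the replicate block and 1 to 67 without single libraries. Between siDDX1 and siScramble, 0 became 2 without centring, 4 with −log10 q of at least 5, 1 within 500 bases, 2 with the mean fold and 0 to 6 without single libraries. Over regions (an analysis added after seeing the data), siEXOSC3 against siScramble gave 10, or 1 without centring, 23 with the replicate block and 1 to 27 without single libraries, and siEXOSC3 against siDDX1 gave 30, or 10 without centring, 18 with quantile normalization and 2 to 34 without single libraries. The cause of these shifts was not tested.

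Differences near 0 changed sign. Dis3 starts in siDDX1 against siScramble went to −0.028 without centring and ran from −0.077 (without siScramble replicate 1) to 0.25 without single libraries. The Papd5 intron region in the same comparison went to −0.013 without centring and ran from −0.057 (without siScramble replicate 2) to 0.28. In siEXOSC3 against siScramble, the Skiv2l2 region ran from −0.060 (without siScramble replicate 1) to 0.27 and the Mphosph6 region from −0.085 (without siScramble replicate 2) to 0.15. None of these passed in either state. RNase H at Skiv2l2 had adjusted p of 0.168 with −log10 q of at least 5 and 0.0602 with equal peak numbers, and at Mphosph6 of 0.0395 without gene extension and 0.0302 on the log2 scale (exact permutation tests). The Papd5 intron difference after RNase H stayed between 0.87 and 1.01 without single libraries, and was 0.49 with no added fragment (adjusted p = 0.0942, exact permutation test), an alternative chosen after seeing the data.

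The labels' replicate numbers did not pair the samples. Same-number correlations of deviations from the group means ran from −0.104 to 0.106 over the starts. With the replicate block, no member passed a test between groups. Summits of 5 to 29 untreated fragments limit each fold, and regions called in 9 of 9 libraries exclude signals lost below the calling threshold.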
